A study of Homo sapiens with 12 samples.

Results

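The genes TAGLN, CNN1, CALD1 and MYL9, which encode proteins of the smooth muscle contractile apparatus, and S100A10 were followed across 3 days and 2 genotypes of cardiomyocyte differentiation. They are 5 of the 17096 genes listed in every library. All 5 were found by symbol, and all 5 passed the filter on low values. They were chosen in part because their values were low in the libraries labelled knockout at day 15, so every value of those libraries is given as a description, with no test. RNA was sequenced from H7, a human embryonic stem cell line, during its differentiation towards heart muscle. The 12 libraries fall into 6 groups of 2, wild type and E2A-/- at days 3, 7 and 15. The labels call the cells cardiac mesoderm at day 3 and cardiomyocytes at days 7 and 15. Neither the number of E2A-/- clones nor whether libraries of a group came from separate cultures is stated in the labels. P-values therefore reflect the spread between these libraries alone, which may be technical.

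Smooth muscle contracts when myosin filaments pull on actin filaments. Phosphorylation of the regulatory light chain of myosin switches this on, and MYL9 encodes the smooth muscle form of that chain. Calponin, the product of CNN1, and caldesmon, the product of CALD1, lie along the thin filament and hold back myosin activity, and transgelin, the product of TAGLN, cross-links actin. Genes of this kind are classical targets of serum response factor (SRF), which binds a DNA element called the CArG box together with myocardin (MYOCD) or its relatives, and several are also expressed for a time in embryonic heart muscle. S100A10, also called p11, is an S100 protein that does not bind calcium and pairs with annexin A2 (ANXA2) at the plasma membrane. E2A, an older name of TCF3, encodes transcription factors that bind the E-box, CANNTG, as dimers.

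Promoter windows from RefSeq (GRCh38.p14, from 250 bases before a gene's start to 50 after it) were matched for 3 of the 5 genes, CNN1, CALD1 with 4 windows and S100A10. TAGLN and MYL9 were not matched. CNN1 (chr19:11538601-11538900, plus strand) and S100A10 (chr1:151993810-151994109, minus strand) are shown because their courses in the libraries labelled knockout were unlike: the mean of CNN1 rose between days 3 and 7 there, and S100A10 passed no test of a rise. Capitals mark matches to CANNTG and to GGGCGG, the core of the GC box, each on either strand, and the 2 motifs do not overlap here.
CNN1: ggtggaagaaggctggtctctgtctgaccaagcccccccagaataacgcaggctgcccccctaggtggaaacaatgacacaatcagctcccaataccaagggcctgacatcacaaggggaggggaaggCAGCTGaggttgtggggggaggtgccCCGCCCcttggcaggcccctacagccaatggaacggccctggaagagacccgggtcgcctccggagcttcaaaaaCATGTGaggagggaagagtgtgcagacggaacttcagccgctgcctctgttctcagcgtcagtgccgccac
S100A10: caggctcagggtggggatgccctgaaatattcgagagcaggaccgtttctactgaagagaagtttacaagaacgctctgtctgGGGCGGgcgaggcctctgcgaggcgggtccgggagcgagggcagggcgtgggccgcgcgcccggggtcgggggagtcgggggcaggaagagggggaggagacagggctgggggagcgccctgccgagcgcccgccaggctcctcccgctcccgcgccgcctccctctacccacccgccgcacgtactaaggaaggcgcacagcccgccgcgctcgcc
The CNN1 window held CANNTG at 2 places, as CAGCTG beginning 122 bases before the start and as CATGTG beginning 21 bases before it, and GGGCGG on the other strand beginning 96 bases before it. The S100A10 window held GGGCGG beginning 167 bases before the start and no CANNTG. None of the 4 CALD1 windows held CANNTG, and 1 held GGGCGG. No window of the 6 held a CArG box, which says only that these letters are not in these 300 bases. Of 35116 such windows of all genes, 68.7% held CANNTG, 17.9% held CAGCTG, 45.0% held GGGCGG and 1.29% held a CArG box. A match is a description and not a binding site.

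On GRCh38 all 5 genes are protein-coding in GENCODE release 29. TAGLN lies on chromosome 11 (117199321 to 117204782), CNN1 on chromosome 19 (11538717 to 11550323), CALD1 on chromosome 7 (134744252 to 134970728) and MYL9 on chromosome 20 (36541484 to 36551447), all on the plus strand. S100A10 lies on the minus strand of chromosome 1 (151982915 to 151994390). The 3′ end of TAGLN overlaps PCSK7 on the opposite strand, and MYL9 lies inside DLGAP4-AS1, an antisense gene. The labels do not state whether counting used strand, and without strand the reads of each pair cannot be told apart. PCSK7 stood between 16.3 and 32.2 FPKM and DLGAP4-AS1 between 0.504 and 5.35 FPKM over the 12 libraries.

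Levels are taken as FPKM, a level scaled to transcript length and library size, and depth is unknown. The mRNA of the targeted gene, TCF3, was not lower in a way that marks the genotype. TCF3 stood at 179.5 and 148.9 FPKM in wild type and 145.9 and 148.1 in labelled knockout at day 3, at 135.2 and 138.0 against 179.9 and 172.1 at day 7, and at 74.4 and 98.2 against 169.7 and 108.3 at day 15. Its log2 changes were −0.15 (adjusted p = 0.618), 0.36 (0.159) and 0.66 (0.0234) by limma. A gene-level value may lie outside the edited part, so it does not check the labels, and the libraries are called "labelled knockout" throughout. FPKM sums ran from 577716 to 734958 and the 2 libraries of a group correlated at 0.973 to 0.990 across genes. Transcripts of mitochondrial DNA took 8.1% to 8.5% of the sum in wild type and 18.5% to 20.2% in labelled knockout at day 7, but 26.1% to 26.2% and 13.9% to 14.3% at day 15. Scaling to nuclear genes alone moved the median change of all genes from −0.01 to 0.12 at day 3, from 0.06 to 0.22 at day 7 and from 0.01 to 0.17 for wild type between days 7 and 15. It also moved the share of called genes that were higher from 40.3% to 62.3% at day 3, from 52.6% to 68.2% at day 7 and from 48.7% to 60.1% for wild type between days 7 and 15.

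In wild type all 5 genes rose between days 3 and 7, and all 5 rose again between days 7 and 15. The median log2 change of the 5 was 2.58 in the first interval and 1.69 in the second, beside −0.03 and 0.01 over all 16295 genes tested. Of all genes, 21.1% were called higher in the first interval and 25.5% in the second. If the low day 15 values behind the choice of members were judged against wild type, the second interval also used values behind that choice. Its p-values would then give no independent test of a rise. In the libraries labelled knockout 4 of the 5 rose between days 3 and 7 (median 1.58, against 0.06 over all genes, with 17.3% called higher), and S100A10 did not pass.

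Against wild type, 3 of the 5 genes were lower in labelled knockout at day 3 (TAGLN, MYL9 and S100A10), where 14.1% of all genes were called lower and 9.51% higher. CNN1 and CALD1 did not pass in either direction. At day 7 all 5 were lower, with 19.9% of all genes called lower and 22.1% higher, and a median log2 change of −1.57 against 0.06 over all genes. Genes chosen in part for low values at day 15 may also tend to be low at earlier days. The shares of all genes, which were not chosen in this way, therefore give no independent test of the 5. At day 15, where the choice of members used the values, the changes ran from −1.65 to −3.65 with a median of −2.12 against 0.03 over all genes, and 16.2% of all genes were called lower and 18.9% higher. RNA came from bulk cultures, in which fewer cells of a type and less RNA per cell cannot be told apart.

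**Figure D1:**
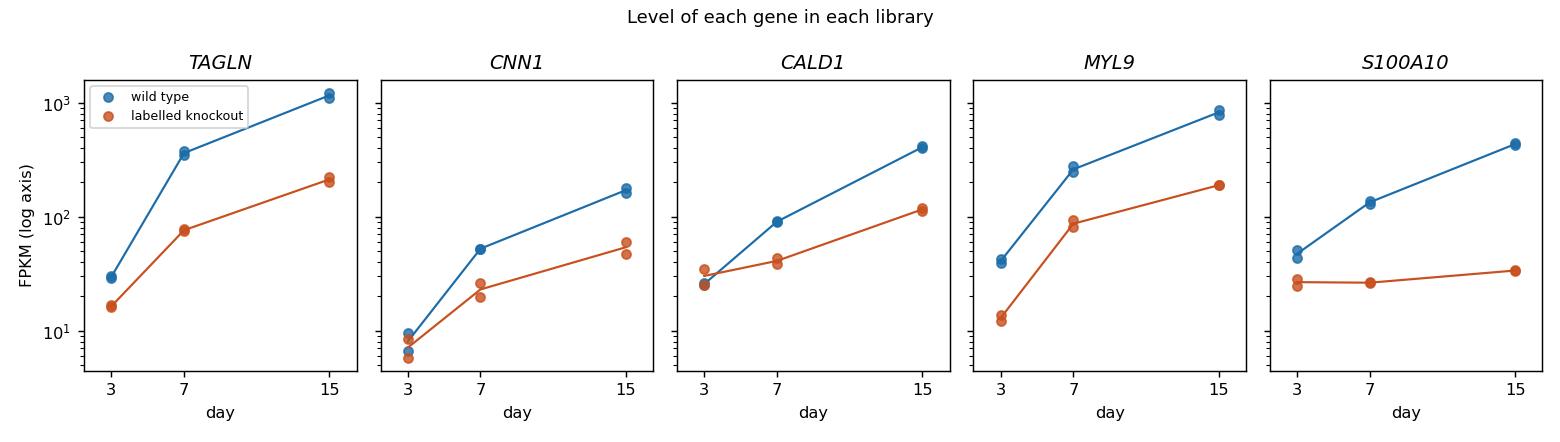
Level of each gene in each of the 12 libraries, as FPKM on a log axis against day. Points are libraries and lines join the group means, in blue for wild type and in orange for labelled knockout. The wild type points rise at each step for all 5 genes, and the labelled knockout points of S100A10 stay between 24.8 and 33.8 FPKM.

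MYL9, the regulatory light chain, was already low at day 3. The libraries stood at 42.4 and 39.2 FPKM in wild type and at 12.2 and 13.6 in labelled knockout at that day, at 244.7 and 276.4 against 80.7 and 93.0 at day 7, and at 786.8 and 863.8 against 189.6 and 188.9 at day 15. The genotypes did not overlap on any day, including day 15, whose values helped choose the gene. The log2 change was −1.59 at day 3 (SE 0.11, adjusted p = 1.72e-05, limma), a ratio of means of 3.16, and −1.57 at day 7 (adjusted p = 7.12e-06), a ratio of 3.0. MYL9 rose in both genotypes between days 3 and 7, by 2.64 in wild type (adjusted p = 4.07e-08) and by 2.66 in labelled knockout (adjusted p = 1.11e-07). The difference between the genotype effects at these days was 0.02 (95% interval −0.34 to 0.37, adjusted p = 0.96), so a difference of up to 0.37 in size is within the interval. At day 15 the change was −2.12, and wild type was 4.36 times higher. Ordered by mean, the groups ran from labelled knockout day 3 through wild type day 3, labelled knockout day 7, labelled knockout day 15 and wild type day 7 to wild type day 15, with no overlap between neighbours.

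Calponin and caldesmon, the thin-filament regulators, had in common that the genotypes overlapped at day 3 and not at day 7. CNN1 stood at 9.45 and 6.61 FPKM in wild type and at 8.37 and 5.80 in labelled knockout at day 3, at 52.6 and 52.2 against 26.4 and 19.6 at day 7, and at 162.8 and 179.3 against 60.5 and 47.4 at day 15. The labelled knockout libraries of CNN1 lay below wild type at day 7, and at day 15, whose values helped choose the gene. Its log2 change was −0.16 at day 3 (95% interval −0.63 to 0.31, adjusted p = 0.632, limma) and −1.17 at day 7 (adjusted p = 0.00149), with wild type 2.28 times higher. At day 15 it was −1.65, a ratio of means of 3.17. In labelled knockout CNN1 rose by 1.58 between days 3 and 7 (adjusted p = 0.000335), and in wild type by 2.58 (adjusted p = 4.76e-06). The wild type libraries at day 7 fell inside the range of the labelled knockout libraries at day 15, so these neighbours in the order did not differ beyond their spread.

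CALD1 stood at 26.2 and 25.1 FPKM in wild type and at 35.0 and 25.4 in labelled knockout at day 3, at 91.0 and 89.9 against 43.6 and 38.3 at day 7, and at 402.3 and 413.6 against 113.4 and 118.6 at day 15. One labelled knockout library at day 3 was higher than both wild type libraries and the other lay between them. The log2 change was 0.21 at day 3 (95% interval −0.10 to 0.52, adjusted p = 0.311, limma) and −1.13 at day 7 (adjusted p = 0.000157), with wild type 2.21 times higher. At day 15 it was −1.81, a ratio of means of 3.52. CALD1 rose by 1.78 in wild type between days 3 and 7 (adjusted p = 3.5e-06). In labelled knockout the rise was 0.44 (adjusted p = 0.0364). That call was lost without replicate 2 of day 3 (0.22, adjusted p = 0.261), without replicate 1 of day 7 (0.35, adjusted p = 0.185) and without replicate 2 of day 7 (0.53, adjusted p = 0.0544). CALD1 was the member whose wild type level rose most between days 7 and 15, by 2.16 (adjusted p = 1.82e-06).

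TAGLN, the actin cross-linker, had the highest level of the 5 in wild type at days 7 and 15, on the FPKM scale, which is per length. The libraries stood at 28.9 and 30.4 FPKM in wild type and at 16 and 16.7 in labelled knockout at day 3, at 349.5 and 374.9 against 78.0 and 74.3 at day 7, and at 1105.3 and 1220.8 against 222.9 and 202.5 at day 15. No genotype pair overlapped on any day, and no neighbours overlapped in the order of the 6 groups. Both statements include the day 15 values that helped choose the gene. The log2 change was −0.82 at day 3 (adjusted p = 0.000368, limma) and −2.23 at day 7 (adjusted p = 3.48e-07), with wild type 4.76 times higher. At day 7, 77 of the 16295 genes had a lower change. At day 15 the change was −2.45, a ratio of means of 5.47. Between days 3 and 7 TAGLN rose by 3.57 in wild type (adjusted p = 2.67e-09) and by 2.15 in labelled knockout (adjusted p = 1.89e-07).

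S100A10 rose in wild type and stayed near its day 3 level in labelled knockout. The libraries stood at 51.5 and 43.1 FPKM in wild type and at 24.8 and 28.5 in labelled knockout at day 3, at 130.2 and 137.7 against 26.7 and 26.0 at day 7, and at 428.3 and 440.9 against 33.8 and 33.6 at day 15. All 6 labelled knockout libraries lay below all 6 wild type libraries, whatever the day. That includes the day 15 libraries whose low values helped choose the gene. The share of all genes that separate in this way was not counted. The log2 change was −0.80 at day 3 (SE 0.11, adjusted p = 0.000886, limma), a ratio of means of 1.78, and −2.30 at day 7 (adjusted p = 6.25e-07), a ratio of 5.08. At day 15 it was −3.65, a ratio of 12.9. Between days 3 and 7 the change in labelled knockout was −0.01 (95% interval −0.27 to 0.24, adjusted p = 0.947), against 1.49 in wild type (adjusted p = 3.2e-06). Between days 7 and 15 it was 0.35 in labelled knockout, given without a test, and 1.69 in wild type (adjusted p = 2.49e-06). The labelled knockout libraries of days 3 and 7 overlapped.

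**Figure D2:**
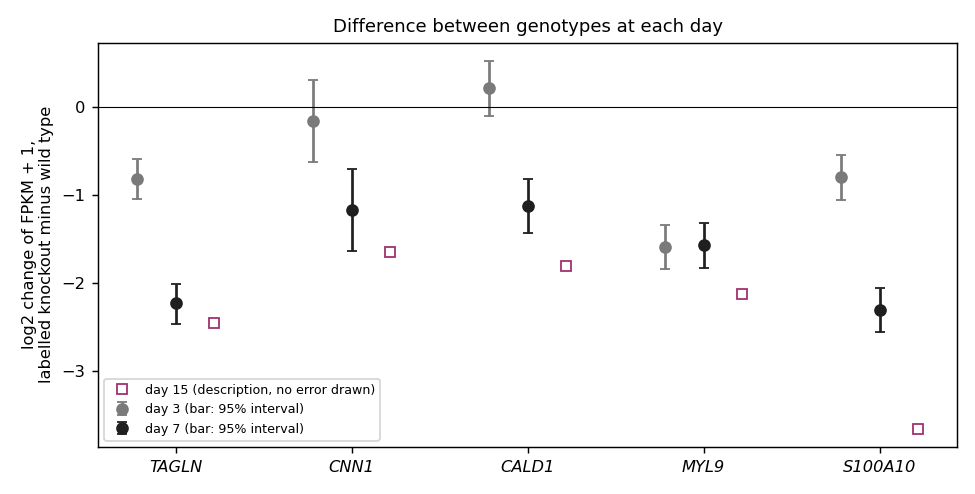
Log2 change of FPKM + 1, labelled knockout minus wild type, for each gene at each day. Bars at days 3 and 7 are 95% intervals of the fit over 2 libraries a group, and day 15 is drawn as hollow squares without an error because the members were chosen in part on those values. CNN1 and CALD1 span 0 at day 3, and all 5 lie below 0 at days 7 and 15.

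The genotype effect itself was compared between days 3 and 7 with the interaction term of the model. It grew for 4 of the 5 genes, where 8.90% of all genes were called in that direction. The choice of members may have favoured such genes, so this share gives no independent test. The difference was −1.50 for S100A10 (SE 0.16, adjusted p = 0.000244, limma), −1.42 for TAGLN (SE 0.14, adjusted p = 0.00015) and −1.34 for CALD1 (SE 0.20, adjusted p = 0.0014). For CNN1 it was −1.01 (SE 0.30, adjusted p = 0.0372), near the threshold. The call for CNN1 ended without replicate 2 of wild type day 3 (−0.78, adjusted p = 0.13), replicate 1 of labelled knockout day 3 (−0.78, adjusted p = 0.12), replicate 1 (−1.0, adjusted p = 0.0981) or 2 (−1.01, adjusted p = 0.0945) of wild type day 7, or replicate 2 of labelled knockout day 7 (−0.80, adjusted p = 0.114). MYL9 was the member that did not pass. Between days 7 and 15 the differences, which use the values behind the choice, were −0.21 for TAGLN, −0.49 for CNN1, −0.68 for CALD1, −0.54 for MYL9 and −1.35 for S100A10.

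Ratios within a library do not depend on how that library was scaled. The ratio of S100A10 to MYL9 was 1.21 and 1.10 in wild type and 2.04 and 2.09 in labelled knockout at day 3, 0.532 and 0.498 against 0.331 and 0.279 at day 7, and 0.544 and 0.510 against 0.178 and 0.178 at day 15. It was therefore higher in labelled knockout at day 3 and lower at days 7 and 15. The ratio of TAGLN to CNN1 was 3.06 and 4.60 against 1.92 and 2.89 at day 3, 6.64 and 7.18 against 2.95 and 3.78 at day 7, and 6.79 and 6.81 against 3.68 and 4.27 at day 15. This ratio was lower in labelled knockout on each day, with no overlap. The ratio of S100A10 to its partner ANXA2 was 0.460 and 0.383 against 0.384 and 0.478 at day 3, where the genotypes overlapped, then 0.697 and 0.739 against 0.381 and 0.431 at day 7, and 1.19 and 1.18 against 0.245 and 0.239 at day 15. These ratios were not tested.

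**Figure D3:**
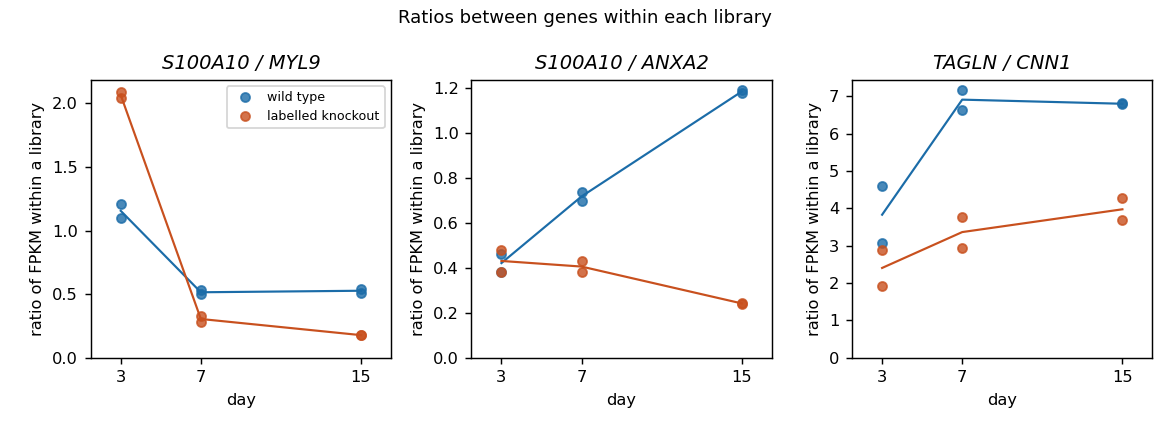
Ratios of FPKM within each library against day, for S100A10 to MYL9, S100A10 to ANXA2 and TAGLN to CNN1. Points are libraries and lines join group means, in blue for wild type and in orange for labelled knockout. In wild type S100A10 rises against ANXA2 from 0.383 at the lowest to 1.19 at the highest, and in labelled knockout at day 15 it lies at 0.245 and 0.239.

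Across the 12 libraries, log2(FPKM + 1) of the 4 contractile genes correlated pairwise at Pearson's r of 0.913 to 0.988, and S100A10 with them at 0.769 to 0.824. These values describe 6 groups that share days and genotypes. The libraries include those labelled knockout at day 15, whose low values helped choose the 5 genes. Part of the likeness between members may therefore follow from the choice, and the genes most like each member were found over the same libraries. Of 10837 genes with a mean of at least 5 FPKM, the 3 most like TAGLN were MYOF (r = 0.990), SELENOW (0.989) and IGF2 (0.988). Those most like MYL9 were IGF2 (0.993), PALLD (0.989), which encodes the actin-associated protein palladin, and PACS1 (0.983). For CNN1 they were SMARCD3 (0.992), a subunit of a chromatin remodelling complex, ATP5G2 (0.990) and DUSP27 (0.989). For CALD1 they were SDCCAG8 (0.988), the cardiac myosin heavy chain MYH7 (0.984) and NEXN (0.983), which encodes the actin-binding protein nexilin. For S100A10 they were MRPL41 (0.981), the cardiac troponin I gene TNNI3 (0.980) and LRRFIP1 (0.979). TNNI3 had group means of 39.1, 74.6 and 130 FPKM in wild type at days 3, 7 and 15 and of 26.4, 32.9 and 27.0 in labelled knockout.

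Beyond the members, a list of 34 smooth muscle and actomyosin genes had 32 tested. Relative to wild type, 3 were higher and 9 lower at day 3 (median −0.21), 4 higher and 15 lower at day 7 (median −0.53), and 4 higher and 20 lower at day 15 (median −0.98). Scaled to nuclear genes the day 3 counts became 7 higher and 7 lower, and the medians −0.06 at day 3 and −0.33 at day 7. ACTA2, smooth muscle alpha-actin, which early heart muscle also expresses, stood at 554 and 561 FPKM in wild type and at 50.5 and 44.3 in labelled knockout at day 7, and at 506 and 538 against 141 and 104 at day 15. It was lower on each day, by a log2 change of −0.98 (adjusted p = 0.0102, limma), −3.53 (2.94e-06) and −2.10 (9.06e-05). At day 3 ACTA2 stood at only 3.68 and 2.71 FPKM in wild type and 0.640 and 1.71 in labelled knockout. The 1 added to each value before the logarithm shrinks a change at such levels. MYH11, the smooth muscle myosin heavy chain and a marker of mature smooth muscle, stood between 0.508 and 9.63 FPKM in all 12 libraries and was lower at day 15 (−1.57, adjusted p = 0.000988).

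Paralogs of the members did not all follow them. TAGLN2 was lower on each day (−1.90, −1.89 and −1.39, adjusted p = 2.57e-05, 1.08e-05 and 8.79e-05, limma), whereas TAGLN3, a neuronal relative, was lower at day 3 (−0.99, adjusted p = 0.00599) and higher at days 7 (2.15, adjusted p = 2.91e-05) and 15 (1.34, adjusted p = 0.000667). CNN2 was lower at days 3 (−0.78, adjusted p = 0.00374) and 7 (−0.61, adjusted p = 0.0071), and CNN3 was higher at day 7 (0.29, adjusted p = 0.0382). Of the other myosin light chains, MYL6 and MYL12B were lower on each day, MYL6 by −1.51 at day 7 (adjusted p = 2.21e-05), and MYL12A was lower at day 15 (−1.03, adjusted p = 0.00102). MYLK, the kinase that phosphorylates the regulatory light chain, was higher at days 3 (0.94, adjusted p = 0.0105) and 7 (1.5, adjusted p = 0.000396). The tropomyosin gene TPM1 was higher at day 3 (0.92, adjusted p = 0.000215) and lower at days 7 (−1.30, adjusted p = 1.2e-05) and 15 (−1.03, adjusted p = 6.58e-05). DES, which encodes the muscle intermediate filament desmin, was lower on each day, by −3.90 at day 15 (adjusted p = 1.32e-06, limma). Some of these levels were low. DES stood at 1.57 and 2.27 FPKM in wild type and 0.542 and 0.997 in labelled knockout at day 3. TAGLN3 stood at 0.0992 and 0.321 in wild type and 2.15 and 1.96 in labelled knockout at day 15.

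**Figure D4:**
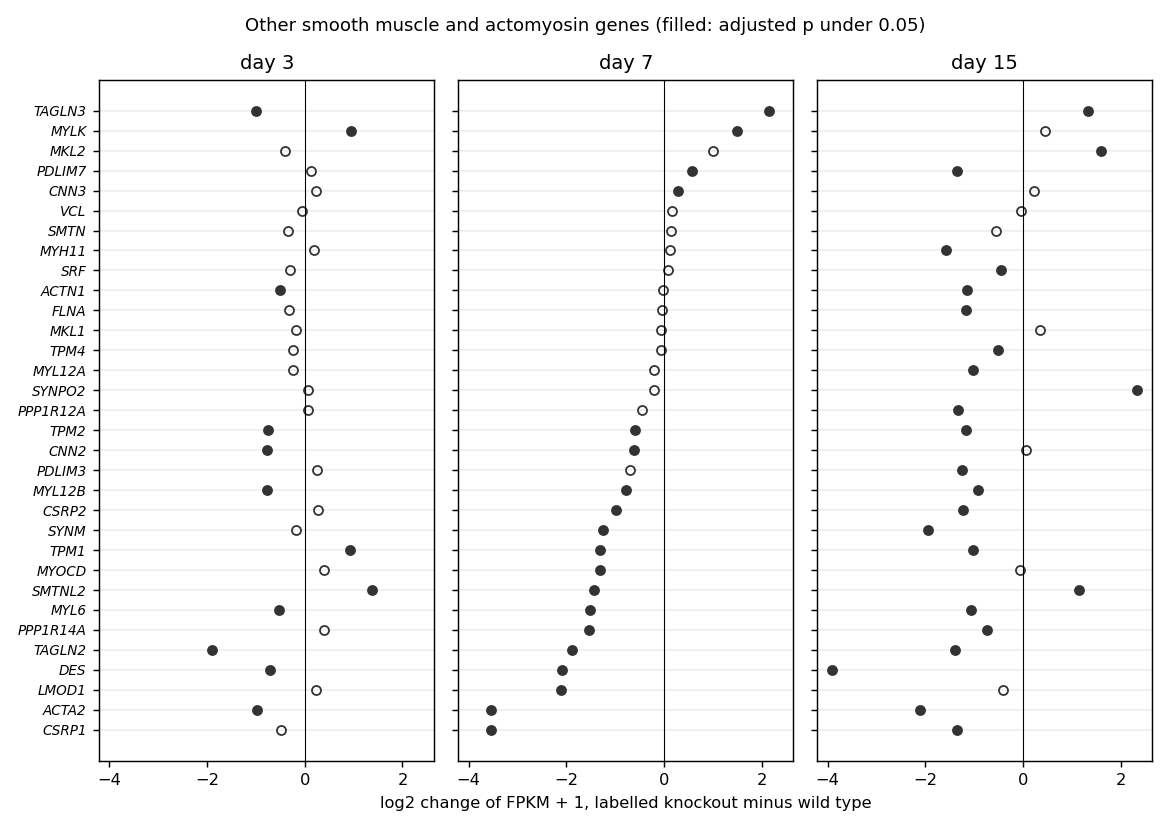
Log2 change of FPKM + 1, labelled knockout minus wild type, of the 32 other smooth muscle and actomyosin genes at days 3, 7 and 15, ordered by the change at day 7. Filled points had an adjusted p under 0.05 in limma, which held for 12, 19 and 24 genes. CSRP1 and ACTA2 lie lowest at day 7, at −3.54 and −3.53, and TAGLN3 highest at 2.15. The CSRP1 libraries labelled knockout were far apart at day 7, at 9.33 and 2.72 FPKM.

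The transcription factors that act on these genes moved in different directions. SRF had changes of −0.30 (adjusted p = 0.103, limma) and 0.08 (0.626) at days 3 and 7 and was lower at day 15 (−0.45, adjusted p = 0.0162). MYOCD stood at 66.6 and 59.5 FPKM in wild type and at 27.2 and 22.7 in labelled knockout at day 7 (−1.31, adjusted p = 0.000484), and at 33.4 and 31.2 against 33.0 and 29.1 at day 15, where the genotypes overlapped (−0.06, adjusted p = 0.842). The MYOCD relative MKL1 passed on no day, and MKL2 was higher at day 15 (1.60, adjusted p = 0.0242, limma). MKL2 stood there at 51.1 and 20.2 FPKM in labelled knockout and at 11.6 and 8.50 in wild type. Its labelled knockout libraries were thus far apart, as they were at day 7 (68.1 and 22.9). Of 26 other SRF and actin cytoskeleton genes, 4 were higher and 10 lower at day 3, 1 higher and 13 lower at day 7, and 2 higher and 14 lower at day 15, with medians of −0.28, −0.41 and −0.50. Scaled to nuclear genes the medians at days 3 and 7 were −0.13 and −0.22, and the day 7 counts 3 higher and 10 lower. ANKRD1, a muscle ankyrin repeat gene, was lower than in wild type at days 7 (−2.57, adjusted p = 1.95e-06) and 15 (−3.85, adjusted p = 2.76e-07), and PFN1, which encodes the actin-binding protein profilin, was lower on each day (−0.93, −1.01 and −0.95, adjusted p = 0.00021, 5.17e-05 and 0.000108).

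S100A10 was not the only gene of its family that was lower. Of 23 S100 and annexin genes and partners 14 were tested, and 0 were higher and 5 lower at day 3, 0 higher and 9 lower at day 7, and 1 higher and 8 lower at day 15. Their medians were −0.43, −0.95 and −0.65, and scaled to nuclear genes the day 3 counts were 2 higher and 4 lower. ANXA2, the partner of S100A10, stood at 112 and 113 FPKM in wild type and at 64.7 and 59.5 in labelled knockout at day 3, at 187 and 186 against 70.2 and 60.2 at day 7, and at 358 and 375 against 138 and 141 at day 15. It was lower on each day (−0.85, −1.51 and −1.39, adjusted p = 0.000322, 4.54e-06 and 9.43e-06, limma). S100A11 was lower by −1.22, −1.50 and −1.53 (adjusted p = 0.000368, 4.16e-05 and 5.61e-05). AHNAK, which encodes a large protein that binds the S100A10 and annexin A2 complex, passed on no day. For the TGF-beta pathway, which promotes contractile gene expression in smooth muscle, 17 genes were tested, and 1 was higher and 4 lower at day 3, 1 higher and 10 lower at day 7, and 5 higher and 4 lower at day 15. Scaled to nuclear genes 3 were higher and 8 lower at day 7. The ligand gene TGFB1 was lower by −1.87 at day 3 (adjusted p = 0.000317) and by −1.87 at day 7 (adjusted p = 0.000129), and SMAD7, a feedback inhibitor, was lower by −1.52 and −1.77 (adjusted p = 5.09e-05 and 8.89e-06).

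Markers of cell types that the cultures could hold often differed between the genotypes too, in directions that varied by list and by day. Their part in the results above was not tested. Of 11 cardiomyocyte markers tested of 14 listed by name, 0 were higher and 2 lower in labelled knockout at day 3, 0 higher and 10 lower at day 7, and 1 higher and 7 lower at day 15. Their summed FPKM was 46.5 to 49.6 in wild type and 33.9 to 34.1 in labelled knockout at day 3, 6713 to 6741 against 1169 to 1288 at day 7, and 9667 to 10615 against 3331 to 4058 at day 15. In labelled knockout at day 7 the list was uneven against its label: TNNT2 stood at 237 and 182 FPKM (810 and 852 in wild type), MYH6 at 555 and 463 (1921 and 1848), NPPA at 2.09 and 2.90 (74.0 and 82.1) and MYH7 at 0.551 and 0.635 (31.1 and 29.3). Mural and fibroblast markers, 10 tested of 16, summed to 3205 to 3231 FPKM in wild type and 1489 to 1611 in labelled knockout at day 7, and to 2186 to 2211 against 1115 to 1295 at day 15, with 1 higher and 4 lower at day 7 and 4 higher and 2 lower at day 15. FN1, the fibronectin gene, carried much of that sum, and without it, an alternative added after the data were seen, the day 15 sums were 910.4 to 964.8 in wild type and 750.4 to 889.8 FPKM in labelled knockout. Of 3 epicardial markers tested 2 were lower at day 7 and 1, KRT19, was higher at day 15 (0.32, adjusted p = 0.033, limma). Of 7 endothelial markers 5 were lower at day 7, and at day 15 3 were higher and 1 lower. Of 7 neural markers tested, 5 were higher and 1 lower at day 3, 4 higher and 1 lower at day 7, and 3 higher and 1 lower at day 15. The neural list, 8 genes in the sum, summed to 372 to 377 FPKM in wild type and 554 to 568 in labelled knockout at day 3, to 322 to 330 against 468 to 497 at day 7, and to 297 to 318 against 273 to 299 at day 15, where the genotypes overlapped. SOX2, which pluripotent cells also express, stood at 153 and 157 FPKM in labelled knockout against 21.0 and 21.2 in wild type at day 7, and MAP2 at 45.9 and 32.4 against 1.51 and 2.89. TUBB3 was lower at day 3 (−0.50, adjusted p = 0.00742, limma), and NCAM1 was lower at days 7 (−1.21, adjusted p = 0.00408) and 15 (−1.16, adjusted p = 0.00638). All 17096 genes listed are above 0 in every library, so no listed marker could be at 0. No values were analysed for 3 of 14 cardiomyocyte, 6 of 16 mural and fibroblast and 4 of 9 epicardial markers. Of the 5 epicardial markers with values, only 3 passed the filter on low values and were tested. The mesoderm label at day 3 had no list of its own. KDR, a receptor of early mesoderm named after its values were seen, stood at 50.4 and 48.8 FPKM in wild type and 71.4 and 58.0 in labelled knockout. KDR is also 1 of the 7 endothelial markers tested, and 0 of these passed in either direction at day 3.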

How the data were processed

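Total RNA of H7 cells was extracted with Trizol and sequenced from 1 ug per library, per the labels' protocols. The authors deposited 1 table per library with a value per gene symbol. The values are taken as FPKM because they are decimals whose sums differ between libraries. The deposited files do not name the unit, and these traits do not settle it, so FPKM is an assumption. BWA and GRCh38 are named in the submitters' processing notes. The quantifying program, annotation and strand setting are named by no label or file header. Fragment counts could not be rebuilt: at the best fragment total per library, 45.5% to 77.1% of the low values of 863 genes that have 1 annotated transcript, 1500 bases or longer, came within 0.1 of a whole number. No count model, counting interval or floor was therefore used.

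A linear model of 6 group means was fitted to log2(FPKM + 1) over all 12 libraries by limma 3.58.1 (R 4.3.3, trend option on), which left 6 residual degrees of freedom. A gene entered if 2 or more libraries had 1 FPKM or more, which kept 16295 and left out 801. Two-sided p-values were adjusted across the whole table by the Benjamini-Hochberg method and called under 0.05. The code was tested on simulated data. Of 9 contrasts, 6 were tested for the 5 genes. The 3 that use the libraries labelled knockout at day 15 were described without a test. The members, the 9 gene lists and the contrasts were chosen with earlier results of these data known. Genes named beside the members are the targeted gene, the 3 genes most like each member over the 12 libraries (mean of at least 5 FPKM), a set of partners and paralogs, and up to 4 genes of each list with the smallest adjusted p in a contrast. Date-like symbols (22) and repeated symbols (9) are not named. Alternatives were median-ratio scaling, scaling to the sum of nuclear genes, a pseudocount of 0.1, a minimum of 5 FPKM, no minimum, no trend, fitting only the groups compared, a replicate block, and leaving out each library.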

Additional observations from a re-analysis of the deposited data

Results flagged for a closer look

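Each of 4 genes had a genotype effect that differed between days 3 and 7 by the interaction term of the limma fit over all genes. The effect at day 7 minus that at day 3 was −1.42 for TAGLN, −1.01 for CNN1, −1.34 for CALD1 and −1.50 for S100A10 on the log2 scale, with adjusted p of 0.00015, 0.0372, 0.0014 and 0.000244. The CNN1 call was lost in 5 of 8 fits with 1 library left out and without the trend option (adjusted p = 0.0502, limma). In each of these 4 genes both labelled knockout libraries lay below both wild type libraries at day 7, values that the interaction term itself uses. The share of all genes that separate in this way was not counted. By limma calls, a different measure, 19.9% of all genes were lower at day 7. The choice of members may also have favoured low values at that day.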

How the results depend on the processing

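Of 380 tested values of the 5 genes under the alternatives, 356 kept their direction and their side of the threshold. Of the rest, 12 lost the call, 1 gained one and 11 reversed. Of 200 described values, 168 moved by no more than the mean standard deviation within the groups compared. A further 32 moved by more than that, and 0 reversed. Leaving out 1 library gave 0 to 1 members called higher at day 3, the 1 being CALD1 without labelled knockout replicate 2 (0.44). The reversals were of changes that passed no test: with 1 library left out, CNN1 at day 3 ran from −0.39 to 0.07, CALD1 at day 3 from −0.01 to 0.44, S100A10 in labelled knockout between days 3 and 7 from −0.11 to 0.08, and the MYL9 difference of effects from −0.09 to 0.12. Scaled to nuclear genes the S100A10 value was 0.08, and with median ratios the MYL9 difference was −0.07. The rise of CALD1 in labelled knockout also lost its call with median ratios (0.37, adjusted p = 0.0583), without the trend (0.44, adjusted p = 0.0637) and with the compared groups alone (0.44, adjusted p = 0.129), as did the CNN1 difference without the trend (−1.01, adjusted p = 0.0502), all by limma. Over all genes, calls at day 3 went from 3849 to between 1990 and 2503 with 1 library left out, at day 7 from 6852 to between 4498 and 5241, in labelled knockout between days 3 and 7 from 4668 to between 2947 and 3284, and for the difference of effects from 3285 to between 1920 and 2558. With the compared groups alone they went from 5723 to 3657 at day 15 and from 4628 to 2084 in labelled knockout between days 7 and 15, and with 1 library left out to as few as 3803 and 2902. Scaling to nuclear genes moved the share of calls that were higher from 52.2% to 37.7% for the difference between days 7 and 15. Correlations of the difference between replicates 1 and 2 ran from −0.12 to 0.21 over 15 pairs of groups. The highest were among the labelled knockout groups, at 0.21 (days 7 and 15), 0.15 (days 3 and 7) and 0.10 (days 3 and 15). The other pairs were at 0.05 or below. Replicate numbers may thus carry over weakly between days in labelled knockout. A replicate block left 3 members lower at day 3 and 5 at day 7 and changed no call. Depth is unknown, and 2 libraries a group limit the precision.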
